A study of Arabidopsis thaliana with 12 samples.

Results

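The splicing events that the authors listed for smeb mutants of Arabidopsis thaliana under chilling are described here: every row of the deposited table for these mutants was taken, which gave 1359 events in 1097 genes. The 3 event tables of the series together hold 1911 different events. RNA was sequenced from whole seedlings 12 days old, grown on half-strength MS medium, of wild-type Col-0 and the mutants smeb-1 and smeb-2 in the Col-0 background. Seedlings of each genotype were kept at 22 °C or chilled at 4 °C for 24 h, with 2 replicates in each of 6 groups, so that 8 of the 12 libraries are from mutants. The labels give the control as 24 h at 22 °C and the protocol gives it as 0 h at 4 °C. They do not say whether replicates were grown separately. The table does not state which groups it sets against each other, nor how both alleles were combined.

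SmEb (AT2G18740) encodes an SmE protein. The Sm proteins close into a ring around the small nuclear RNAs that recognise introns, and the ring is needed to build the small nuclear ribonucleoproteins of the spliceosome. Splicing joins exons at a 5′ site, usually GT at the start of the intron, and a 3′ site, usually AG at its end. A cassette exon is either kept or skipped as a whole, a retained intron is either removed or kept, and alternative 3′ and 5′ sites move an exon's edge. Many plant stress, light and clock genes are known to be spliced in more than one way, and cold alters the choice.

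For each event the table gives where it lies, its kind and an FDR (false discovery rate), but no level, size or direction. A listed cassette exon therefore says that inclusion differed between the groups compared, not in which group the exon was skipped more. Depth is unknown, and the event tables used here hold no value per library, so none of the shares below was tested over samples. Intervals are 95% Wilson intervals and cover the counting of events only. No level of SmEb can be read from the tables, and neither SmEb nor its paralog SmEa had a listed event.

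Sequences of 4 cassette exons, read from the RefSeq genome TAIR10.1 (5′ to 3′, as are all below), are shown first, since each is an exon absent from the Col-0 table that no annotated transcript of its gene skips. GPA1 (AT2G26300) encodes a heterotrimeric G protein's alpha subunit, ACA10 (AT4G29900) a calcium-pumping ATPase, and AT4G02120 a CTP synthase. Capitals mark the exon, and lower case the 20 intron bases before it and the 10 after it.
GPA1 exon 6 (chr2:11198776-11198883, plus strand): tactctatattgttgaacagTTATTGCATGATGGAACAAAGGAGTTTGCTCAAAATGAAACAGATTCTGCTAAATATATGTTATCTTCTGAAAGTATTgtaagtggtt
ACA10 exon 16 (chr4:14615239-14615324, minus strand): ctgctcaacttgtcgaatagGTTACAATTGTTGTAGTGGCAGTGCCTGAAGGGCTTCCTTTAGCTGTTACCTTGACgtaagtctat
AT4G02120 exon 12 (chr4:942590-942682, plus strand): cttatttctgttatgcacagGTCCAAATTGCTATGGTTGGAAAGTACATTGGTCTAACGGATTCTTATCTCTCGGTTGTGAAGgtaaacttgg
AT4G02120 exon 17 (chr4:943559-943637, plus strand): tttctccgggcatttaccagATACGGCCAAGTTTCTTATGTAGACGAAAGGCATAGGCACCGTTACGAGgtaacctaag
The GPA1 exon is 78 nt long and the CTP synthase exon 12 is 63 nt long, both multiples of 3, so leaving them out keeps the reading frame. The ACA10 exon (56 nt) and exon 17 of the CTP synthase gene (49 nt) are not multiples of 3. None of the 4 was listed for Col-0.

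Cassette exons were the most frequent kind. There were 387 cassette exons (28.5% of the events), 327 retained introns (24.1%), 307 alternative 3′ sites (22.6%) and 228 alternative 5′ sites (16.8%). Alternative starts (59), multiple cassettes (33), alternative ends (15) and mutually exclusive exons (3) were rarer. In the Col-0 chilling table, alternative 3′ sites led with 388 events (29.0%) and cassette exons made up 21.2%. The difference in order between the tables was not tested. Of the alternative 3′ sites in smeb, 68.4% were also in the Col-0 table at the same position, of the cassette exons 50.4%. In all, 807 events stood in both tables, 59.4% of the smeb events and 60.3% of the Col-0 events, and 746 genes did, 68.0% of the smeb genes and 65.4% of the Col-0 genes. Of the 34 different events listed for smeb at 22 °C, 11 were in the chilling table.

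**Figure D1:**
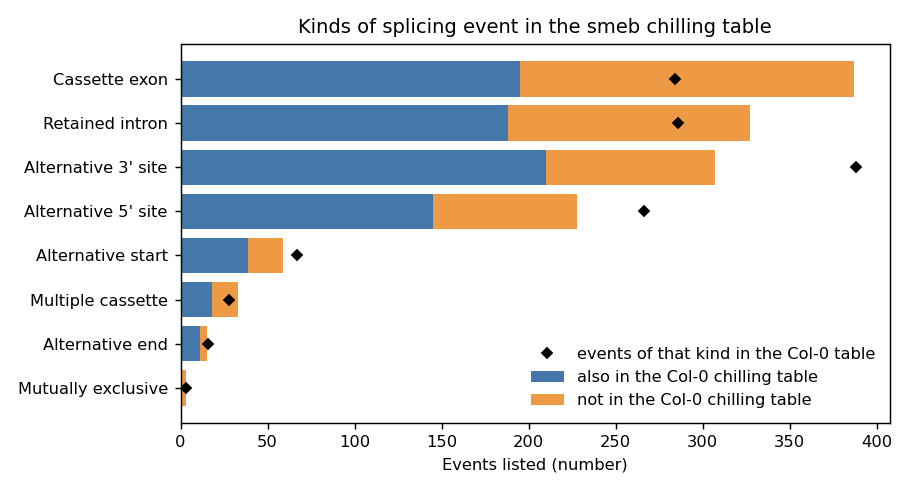
Number of events of each kind in the smeb chilling table (bars; horizontal axis, events), split by whether the same event is in the Col-0 chilling table, with the Col-0 total as a diamond. Cassette exons (387 in smeb, 284 in Col-0) lie above the Col-0 total and alternative 3′ sites (307 and 388) below it.

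Being listed is not the same as an FDR under 0.05 in this table. The p-values, which the authors label as adjusted, and the FDR values imply 10308 tested events, of which 13.2% were listed. The last listed event has rank 1693 among them, and 1359 of these ranks (80.3%) have a row in the table used here, so 334 ranks have none. For Col-0, 1339 of 1346 ranks up to the last event (99.5%) are present. The gap widens with weaker p: where the authors' deposited table has an FDR under 0.001, 93.5% of the smeb ranks are present, against 99.4% for Col-0. An event of Col-0 that is missing from smeb may therefore hold one of those 334 ranks, and what sets the ranks without a row apart was not tested. In turn, a smeb event absent from the Col-0 table may not have been tested there, or may have missed its FDR limit. Absence from that table therefore does not show that an event was particular to the mutants.

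Exons that are constitutive in the annotation were a larger class of cassette exons in smeb than in Col-0, a difference that was not tested. Of the 387 cassette exons, 151 (39.0%, interval 34.3 to 44.0) are annotated exons that no annotated transcript skips. In Col-0 60 of 284 are (21.1%, 16.8 to 26.2). With both tables limited to an FDR under 0.001 in the authors' deposited tables, 80 of 248 (32.3%) were constitutive in smeb and 30 of 175 (17.1%) in Col-0. Of the 192 smeb cassette exons absent from the Col-0 table, 108 (56.3%) were of this class, against 43 of the 195 shared ones (22.1%). Among the 89 Col-0 cassette exons absent from smeb, 17 (19.1%) were. Whether an exon absent from a table was tested for that table is unknown. Nearly all internal exons of protein-coding genes are constitutive by this rule (98.5%), so the share says how far the list reaches into exons with no annotated skipping. The constitutive exons had weaker calls: the FDR was 0 in the authors' deposited table for 10.6%, against 30.9% of the other cassette exons.

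**Figure D2:**
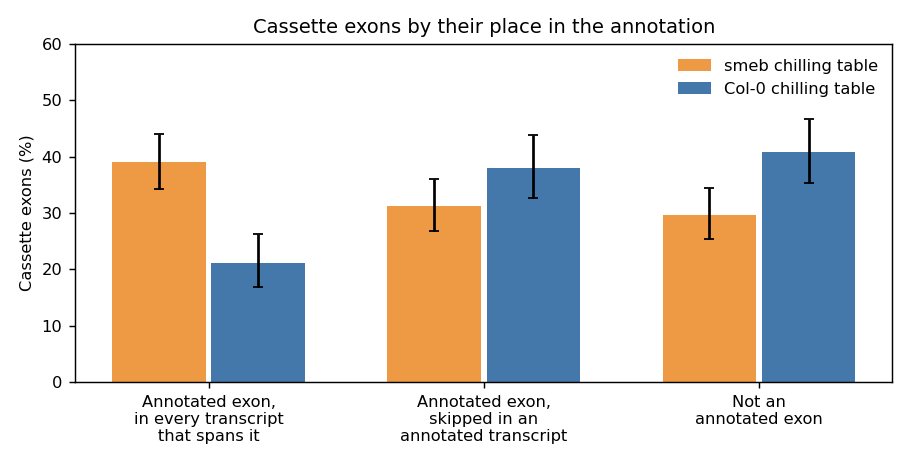
Share of cassette exons (vertical axis, percent) in 3 classes of annotation, for the smeb and Col-0 chilling tables; error bars are 95% Wilson intervals over exons. Annotated exons that no annotated intron of their gene spans make up 39.0% in smeb and 21.1% in Col-0.

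The 151 exons lie in 143 genes, 8 of which have more than 1. Their median length was 81 nt, and that of the other constitutive internal exons of the same genes was 102 nt. The 5′ site after them scored a median of 6.59 bits in a log2-odds model of annotated sites, against 6.98 for those other exons, and the 3′ site before them 7.11 against 7.65. The introns on either side were of like length, with medians of 99 nt before and 100 nt after, against 100 and 99 nt. In the coding span, 49 of 130 (37.7%) were multiples of 3, and 81 would shift the frame when skipped. For all constitutive coding exons the share of multiples of 3 was 44.8%, inside the interval of 29.8 to 46.3.

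Several of these exons belong to genes of signalling and metabolism. CVL1 (AT2G32010), an inositol polyphosphate 5-phosphatase, had exon 12 of 13 (110 nt, in the 3′ UTR) listed, and CBL1 (AT4G17615), a calcium sensor, exon 3 of 8 (83 nt). PBCP (AT2G30170), the phosphatase of photosystem II core proteins, had exon 7 of 10 (124 nt). Exon 2 was listed in 2 guanylate kinase genes, GK-1 (AT2G41880) with 55 nt and AGK2 (AT3G57550) with 40 nt. XRN3 (AT1G75660), a nuclear 5′ to 3′ exoribonuclease, had exon 3 of 23 (77 nt). CUL1 (AT4G02570), the scaffold of SCF ubiquitin ligases, had exon 2 of 21 (101 nt, in the 5′ UTR), and FNR2 (AT1G20020), a ferredoxin reductase of chloroplasts, exon 4 of 9 (79 nt). CTC1 (AT4G09680), a telomere maintenance protein, had exon 14 of 16 (109 nt). None of these exons was in the Col-0 table. By contrast, exon 6 of 15 of PTB3 (AT1G43190), a polypyrimidine tract-binding protein (124 nt), and exon 11 of 14 of PGI1 (AT4G24620), the plastid phosphoglucose isomerase (157 nt), were in both tables.

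The other cassette exons were mostly shared with Col-0. An annotated transcript skips 121 (31.3%), of which 82 (67.8%) were also in the Col-0 table, and 49 of them lie in 5′ UTRs. In the coding span 30 of 55 (54.5%, interval 41.5 to 67.0) of these were multiples of 3. A further 115 (29.7%) are not annotated exons, and 70 of these were shared. Of 78 such exons inside coding introns, 75 either bring an in-frame stop (52 of them) or have a length that is not a multiple of 3. Very short exons of up to 30 nt made up 27 of the 387 (7.0%), against 0.925% of all annotated internal exons.

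Exons absent from the annotation are shown for regulators of splicing and of the clock, together with the shortest exon. UNE6 (AT3G03340) and AT5G17440 are both LUC7-related, LUC7 being a protein of the U1 particle that acts at 5′ sites; SR30 (AT1G09140) is a serine/arginine-rich (SR) splicing factor; PRR7 (AT5G02810) is a pseudo-response regulator of the clock. Capitals mark the exon.
UNE6, intron 9 (chr3:788933-789003, plus strand): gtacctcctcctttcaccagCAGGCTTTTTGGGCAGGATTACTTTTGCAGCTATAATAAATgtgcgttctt
AT5G17440, intron 9 (chr5:5752604-5752683, plus strand): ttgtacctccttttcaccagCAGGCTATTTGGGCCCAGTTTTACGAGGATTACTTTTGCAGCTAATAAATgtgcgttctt
AT5G17440, intron 7 (chr5:5751838-5751885, plus strand): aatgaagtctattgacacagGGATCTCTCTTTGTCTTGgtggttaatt
SR30, intron 10 (chr1:2943408-2943584, minus strand): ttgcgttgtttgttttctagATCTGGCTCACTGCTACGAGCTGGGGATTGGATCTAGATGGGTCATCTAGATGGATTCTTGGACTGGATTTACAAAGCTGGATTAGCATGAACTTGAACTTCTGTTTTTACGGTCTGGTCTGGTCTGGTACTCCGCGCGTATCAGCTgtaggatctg
PRR7, intron 4 (chr5:640146-640222, minus strand): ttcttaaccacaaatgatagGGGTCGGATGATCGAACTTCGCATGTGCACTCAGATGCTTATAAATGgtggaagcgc
AT5G18230, exon 2 (chr5:6026585-6026620, minus strand): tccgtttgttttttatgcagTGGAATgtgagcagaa
The listed exons in intron 9 of the LUC7-related genes are 41 nt long in UNE6 and 50 nt long in AT5G17440, which has another of 18 nt in intron 7. The SR30 exon is 147 nt long and brings an in-frame stop. The PRR7 exon is 47 nt long, and the exon of AT5G18230, which is annotated, 6 nt. The exons of UNE6, SR30 and PRR7 were not in the Col-0 table.

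Retained introns were listed almost only where the annotation already has a transcript that keeps them. Of the 327, 252 (77.1%) match an annotated intron, and 251 of those lie whole inside an exon of another annotated transcript, as do 7.53% of all introns of protein-coding genes. In Col-0 this held for 215 of 216. The introns with annotated retention are therefore the fitting background. Of the listed ones 34.1% lie in 5′ UTRs (interval 28.6 to 40.2) against 28.3%, 15.1% in 3′ UTRs (11.2 to 20.02) against 11.2%, and 48.0% in the coding span (41.9 to 54.2) against 59.99%. Each of these backgrounds falls outside the interval of the listed share, those of the UTRs by under 1 percentage point. Within the listed genes alone, the introns with annotated retention had shares of 36.7%, 13.1% and 49.7%, all inside. The median length was 97.5 nt, against 112 nt, and the median score of the 5′ site was 6.41, against 6.29. Of the 252, 245 read GT to AG and 7 read GC to AG.

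**Figure D3:**
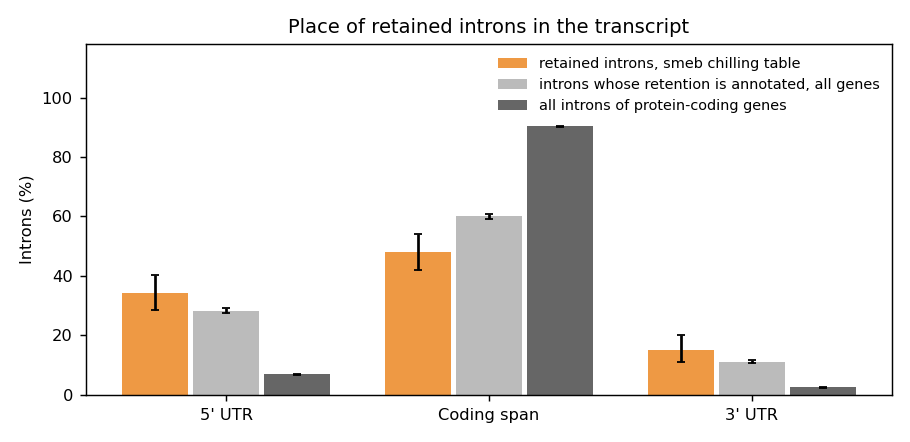
Share of introns (vertical axis, percent) in the 5′ UTR, the coding span and the 3′ UTR, for retained introns of the smeb chilling table, for introns whose retention is annotated and for all introns of protein-coding genes; error bars are 95% Wilson intervals. The listed introns lie nearer to those with annotated retention (28.3%, 59.99% and 11.2%) than to all introns (6.89%, 90.4% and 2.58%).

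Of 121 retained introns in the coding span, 83 (68.6%) carry a stop codon in frame, against 74.3% of coding introns with annotated retention. A further 26 (21.5%, interval 15.1 to 29.6, against 16.1%) are multiples of 3 with no stop, so the protein can be read through them. These include introns of the clock-regulated RNA-binding protein GRP7 (AT2G21660) and of COR15A (AT2G42540), a chloroplast protein that protects membranes against freezing, and they are shown with an intron of PYL8 (AT5G53160, RCAR3 in the reference), an abscisic acid receptor, whose length is not a multiple of 3. Capitals mark the first and last pair of bases of the intron, and 10 exon bases stand on either side.
GRP7 intron 2 (chr2:9265655-9265725, minus strand): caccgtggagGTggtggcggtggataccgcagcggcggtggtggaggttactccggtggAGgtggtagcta
COR15A intron 3 (chr2:17711299-17711387, minus strand): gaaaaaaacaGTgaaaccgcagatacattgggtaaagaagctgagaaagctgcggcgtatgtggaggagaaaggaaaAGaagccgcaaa
PYL8 intron 2 (chr5:21561651-21561750, plus strand): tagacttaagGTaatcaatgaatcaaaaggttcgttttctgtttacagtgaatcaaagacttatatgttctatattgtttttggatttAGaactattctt
The GRP7 intron (51 nt) spans 17 residues and the COR15A intron (69 nt) 23, which are present where the intron is kept and absent where it is removed. Each of the 26 lies whole inside an exon of another annotated transcript. The PYL8 intron is 80 nt long. All 3 were also in the Col-0 table. Other read-through introns were those of VCS (AT3G13300), a scaffold of mRNA decapping (105 nt), UBQ10 (AT4G05320), a polyubiquitin (228 nt), ARC5 (AT3G19720), a dynamin of chloroplast division (108 nt), and, absent from Col-0, SYD (AT2G28290), a chromatin remodeller (93 nt), and GLU1 (AT5G04140), a glutamate synthase (78 nt). The longest retained intron was intron 6 of 8 of U1-70K (AT3G50670), which belongs to the U1 particle, with 909 nt and a stop in frame.

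Alternative 3′ sites lay a median of 21 nt apart and alternative 5′ sites 35 nt. In both kinds 5 nt was the most frequent distance, with 31 of 307 and 16 of 228. No pair lay closer than 5 nt in either table, although 16.6% of neighbouring annotated 3′ sites do and 13.4% lie exactly 3 nt apart, so the tables have a lower limit and say nothing of closer pairs. Among neighbouring annotated 3′ sites of 5 nt or more, 2.996% were 5 nt apart. Both sites were annotated in 110 alternative 3′ events and 1 site in 185. In the coding span 71 of 212 (33.5%) were multiples of 3.

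**Figure D4:**
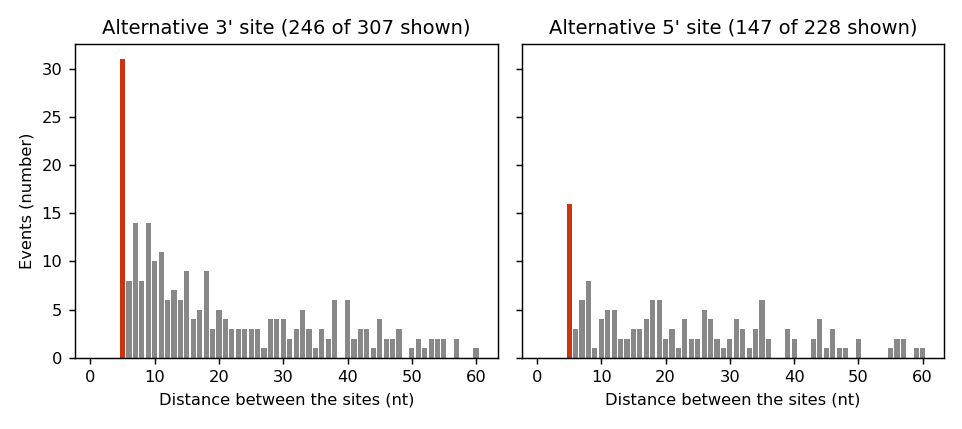
Number of events (vertical axis) by the distance between alternative sites in nt (horizontal axis, up to 60 nt), for 3′ sites on the left and 5′ sites on the right. The red bars mark 5 nt, with 31 and 16 events, and no event lies to their left.

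The 5 nt pairs are shown for the neighbouring genes GGH3 (AT1G78670) and GGH2 (AT1G78680), gamma-glutamyl hydrolases that trim folate tails, with 2 such events each, and for SBE2.2 (AT5G03650), a starch-branching enzyme. Capitals mark the AG of either site.
GGH3, first pair (chr1:29592065-29592100, plus strand): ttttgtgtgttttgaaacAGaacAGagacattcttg
GGH3, second pair (chr1:29593060-29593095, plus strand): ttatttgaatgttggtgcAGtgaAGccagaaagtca
GGH2, first pair (chr1:29594705-29594740, plus strand): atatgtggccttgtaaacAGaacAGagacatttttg
GGH2, second pair (chr1:29594887-29594922, plus strand): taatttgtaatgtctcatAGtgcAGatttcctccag
SBE2.2 (chr5:932198-932233, plus strand): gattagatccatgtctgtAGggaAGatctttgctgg
The first pairs of both GGH genes and that of SBE2.2 were also in the Col-0 table, and the second pairs of both GGH genes were not. VDE1 (AT1G08550, NPQ1), the violaxanthin de-epoxidase of photoprotection, and the blue-light receptor PHOT2 (AT5G58140) also had sites 5 nt apart, a 3′ pair and a 5′ pair.

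Events gathered in some genes. Most genes (890) had 1 event, and 207 (18.9%) had more. In 166 of these 207 the events were of more than 1 kind, most often an alternative 3′ site with a cassette exon (31 genes) or with a retained intron (23 genes). MAP65-8 (AT1G27920), a microtubule-associated protein, and AT1G27921, a non-coding RNA gene on the opposite strand, had 7 each, and all 14 were in the Col-0 table. BGAL8 (AT2G28470), a beta-galactosidase, had 5, of which 1 was in Col-0. AT5G14550, of a glycosyltransferase family, also had 5, all in Col-0. Of the genes with 4, the CTP synthase gene AT4G02120 and MMH-1 (AT1G52500), a DNA repair glycosylase, had none in Col-0. SEX4 (AT3G52180), the phosphoglucan phosphatase of starch breakdown, and PTM (AT5G35210), a PHD-type transcription factor bound to the chloroplast envelope, had 1 of 4 in Col-0, AT5G25560 2, and GRP7 and ATU2AF65A (AT4G36690), which binds the polypyrimidine tract, 3.

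The gene that holds an event is uncertain for some. Of 1215 events of the 4 main kinds that lie inside their gene, 72 (5.93%) do not read as splice sites on that gene's strand. In 50 events of 29 genes a boundary is an annotated splice site of a gene on the other strand, and in 28 of them the other boundary is the listed gene's own site. The alternative 5′ events of MAP65-8 are of this mixed sort, joining its own sites with those of AT1G27921, and so are those of AT1G27921 with MAP65-8. A further 38 events (2.80%) lie outside the gene they are listed for, 20 of them on another chromosome or more than 10 kb away. In 8 of the 20, the gene at the position shares a name with the listed gene. The introns listed for the receptor kinase BAM3 (AT4G20270) lie in the beta-amylase gene AT4G17090, also named BAM3. The alternative 3′ site listed for PHR1 (AT4G28610), a regulator of phosphate starvation, lies in AT1G12370, a photolyase gene of the same name. The cassette exon listed for the GRAS gene AT2G29060 lies in AT1G55310, the SR protein gene SCL33. Both alternative 5′ events of MMH-1 lie in its neighbour AT1G52510.

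The share of genes listed varied between gene groups. Of 24197 genes with an annotated intron, 4.52% were listed in smeb. These include genes without a tested event, since 10308 events were tested in all, and which genes those are is unknown. The share was higher in genes with more introns, from 0.930% of protein-coding genes with 1 intron to 12.0% of those with 20 or more. The groups below are given as counts of members with an intron, beside the Col-0 count, without a test. In all, 1140 genes are listed for Col-0 and 1097 for smeb. The groups were chosen with earlier results of these data known. All 16 lie above 4.52%, the lowest at 7.69%, so lying above that share is not a result about a group. Of the SR proteins 10 of 20 were listed (50.0%; Col-0, 9), of a group of hnRNP, glycine-rich and other RNA-binding proteins 9 of 18 (50.0%; Col-0, 7), or 8 of 17 (47.1%; Col-0, 6) without AGO1 (AT1G48410), an Argonaute that binds small RNAs, and of other spliceosome proteins 12 of 33 (36.4%; Col-0, 11). Of the Sm and LSm proteins and their assembly factors 2 of 26 were listed (7.69%; Col-0, 1): LSM3A (AT1G21190), with an alternative 5′ site absent from Col-0, and AT1G54380, the GEMIN2 assembly factor, with an unannotated exon of 79 nt that brings a stop.

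**Figure D5:**
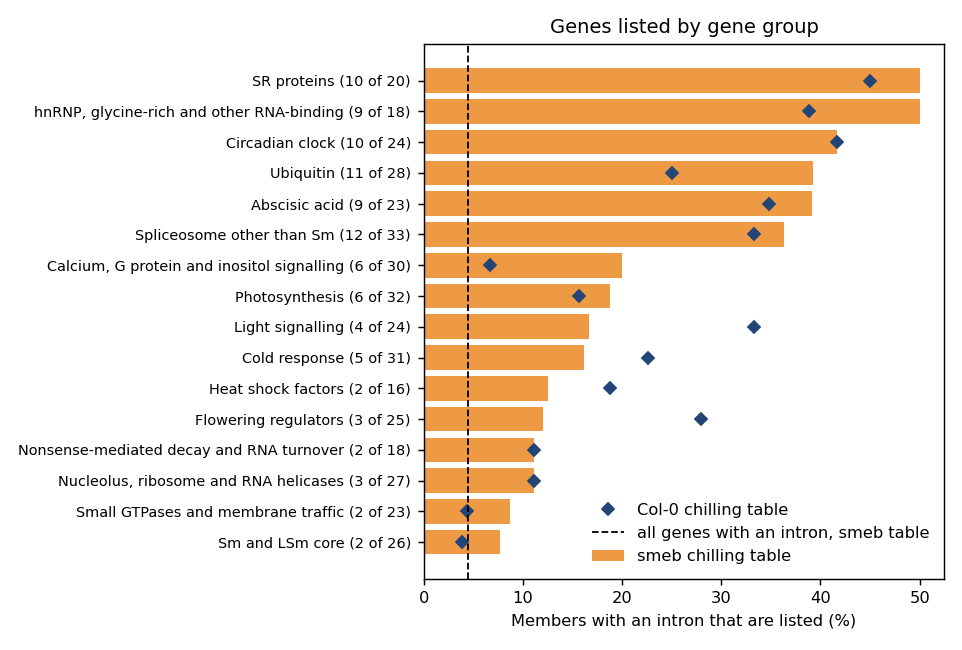
Share of members with an intron that are listed (horizontal axis, percent) in 16 gene groups, with counts in the labels, for smeb (bars) and Col-0 (diamonds); the dashed line is the share of all genes with an intron in the smeb table (4.52%). SR proteins and the hnRNP, glycine-rich and other RNA-binding proteins are at 50.0%, the latter at 47.1% without AGO1. The groups were chosen with earlier results of these data known, and all lie above the line.

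The 10 SR genes had 13 events: 8 cassette exons of 67 to 393 nt, 4 alternative 3′ sites 218 to 353 nt away and 1 retained intron of 112 nt, in RSZ22a (AT2G24590). SR34 (AT1G02840) had a cassette exon of 80 nt and an alternative 3′ site 353 nt away, both also in Col-0. SR30 had its 147 nt exon and an alternative 3′ site 338 nt away, neither in Col-0. RS40 (AT4G25500) had exons of 257 and 67 nt, SCL30A (AT3G13570) an exon of 161 nt with a stop, and RS2Z32 (AT3G53500) an alternative 3′ site 218 nt away, all in Col-0. RS2Z33 (AT2G37340), its paralog, had the same distance of 218 nt and was not in Col-0. RS31 (AT3G61860) and RS41 (AT5G52040) had long exons of 393 and 326 nt in both tables. Of the hnRNP proteins, PTB1 (AT3G01150), PTB2 (AT5G53180) and PTB3 each had 1 cassette exon, of 102, 61 and 124 nt, and that of PTB2 was absent from Col-0.

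Clock genes were as frequent as in the wild type, with 10 of 24 listed (41.7%) in either table and the same 10 genes in both. The share over all genes with an intron was 4.52% in smeb. CCA1 (AT2G46830), a morning transcription factor, had an alternative start. LNK2 (AT3G54500) had 3 events, RVE4 (AT5G02840) 2, and the events of PRR5 (AT5G24470), PRR9 (AT2G46790), RVE2 (AT5G37260), LNK1 (AT5G64170) and JMJD5 (AT3G20810) were all in Col-0. The exons of PRR7 and of ELF3 (AT2G25930, 178 nt), a subunit of the evening complex, were not in the Col-0 table, which lists other events of these genes, and neither was the constitutive exon 4 of 9 of RVE4 (159 nt). The PRR7 exon was also in the smeb table at 22 °C, the only clock event listed there of these 13.

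Signalling groups had unequal counts in the tables. Of calcium, G protein and inositol signalling genes 6 of 30 were listed in smeb and 2 in Col-0; GPA1, ACA10, CBL1 and CVL1, all with constitutive exons, were the 4 that Col-0 lacked. Of the ubiquitin group 11 of 28 were listed (39.3%; Col-0, 7), with first introns retained in UBC8 (AT5G41700) and UBC9 (AT4G27960), ubiquitin-conjugating enzymes, in both tables, and that of UBQ14 (AT4G02890) in smeb alone of the chilling tables. Of the abscisic acid group 9 of 23 were listed (39.1%; Col-0, 8), among them the kinases SnRK2.2 (AT3G50500) and SnRK2.3 (AT5G66880) and ABA3 (AT1G16540), with constitutive exon 7 of 20 (46 nt) absent from Col-0. Fewer genes than in Col-0 were listed for light signalling, 4 of 24 (16.7%) against 8, and flowering, 3 of 25 (12.0%) against 7. The same held for cold response, 5 of 31 (16.1%) against 7. Of all genes with an intron 4.52% were listed in smeb. A gene missing from smeb may hold one of the 334 ranks without a row, and the differences were not tested. The cold genes were COR15A, COR27 (AT5G42900), ERD10 (AT1G20450), P5CS1 (AT2G39800), which makes proline, and GOLS3 (AT1G09350), a galactinol synthase. In ERD10, a retained intron of 57 nt and an alternative 5′ site do not read as splice sites on the strand of ERD10. Its other event, a retained intron of 41 nt, reads GT to AG but is not annotated. The exon of P5CS1 (exon 3 of 21, 104 nt) was absent from Col-0. The flowering genes were FLM (AT1G77080), MAF2 (AT5G65050) and MAF3 (AT5G65060), and the light genes PHYA (AT1G09570), PHOT2, HYH (AT3G17609) and SPA3 (AT3G15354).

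The remaining groups are set beside the 4.52% of all genes with an intron that were listed in smeb. Of photosynthesis genes 6 of 32 were (18.8%; Col-0, 5). The events of RBCS1A (AT1G67090), the small subunit of Rubisco, and PSBO1 (AT5G66570), of the oxygen-evolving complex, do not read as splice sites on either strand, whereas intron 1 of 4 of PETC (AT4G03280), the Rieske protein, is annotated (91 nt). Of nonsense-mediated decay and RNA turnover genes 2 of 18 were listed (11.1%, and 2 in Col-0), XRN3 and VCS. Nucleolar and helicase genes had 3 of 27 (11.1%, and 3 in Col-0): NUC1 (AT1G48920), RCF1 (AT1G20920) and STRS1 (AT1G31970). Heat shock factors had 2 of 16 (12.5%, and 3 in Col-0), HSFA1E (AT3G02990) and HSFC1 (AT3G24520). Both HSFC1 events have 1 boundary at an annotated splice site of AT3G24518, a gene on the other strand. Of small GTPases 2 of 23 were listed (8.70%, and 1 in Col-0). RABG3B (AT1G22740), a Rab GTPase of late endosomes, had a constitutive exon of 27 nt and an unannotated one of 58 nt, neither in Col-0.

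The authors deposited 12 ontology terms for a list of 296 genes that they name SmEb-independent. The genes given for these terms are all listed in smeb and not in Col-0, as are 351 genes in all. RNP complex biogenesis has 18 of the 296 genes, against 437 of 21859 in the background, at an adjusted p of 0.0407. No other of the 12 terms has an adjusted p under 0.05. The 18 genes hold 19 events. They include NUFIP (AT5G18440), which directs assembly of small nucleolar particles, and POP4 (AT2G43190), a subunit of ribonuclease P, both with intron 1 retained in the 5′ UTR. PPAN (AT5G61770), of ribosome biogenesis, had constitutive exon 5 of 8 (93 nt) and PAC (AT2G48120), of plastid RNA maturation, exon 4 of 7 (87 nt). In the authors' deposited table, the FDR of these 2 exons was near 0.05, at 0.0478 and 0.0466. That of the introns was 2.95e-05 for NUFIP and 0.00165 for POP4.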

How the data were processed

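RNA-seq libraries of 6 groups (2 replicates each) were processed by the submitters with Trimmomatic 0.32 and TopHat2 2.0.13 on TAIR10, per the submitters' processing notes. The event caller, its filters and its use of strand are not stated in these sources. The authors deposited, per the file headers, an adjusted p-value and an FDR per event, and no values per sample. The adjusted p-value is called p or p-value here, and how it was adjusted is not stated. Depth and precision per sample are therefore unknown, and no test, standard deviation or replicate check was possible.

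Positions are 1-based and were read against the RefSeq annotation of TAIR10.1 with Python 3 scripts. A retained intron was taken as the listed interval less 1 base at each end. An exon was called constitutive where it is annotated and no intron of its gene spans it. Site scores are log2 odds over 9 bases at 5′ sites and 23 at 3′ sites, trained on annotated introns. Events of the same gene, kind and position were taken as identical. The number of tests is the smallest for which p × tests / FDR is a whole rank (tolerance 0.0001) about as often as for any number; 88.4% of smeb events with a p-value above 0 gave one. Scripts were tested on simulated data.

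The members, the 16 gene lists (418 genes) and the rule for named genes (most events, lowest FDR, list members) were chosen with earlier results of these data known; genes named for a structural property were chosen after their values were seen. Alternatives were stricter FDR limits, 1 event per gene and other matching rules.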

Additional observations from a re-analysis of the deposited data

How the results depend on the processing

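Of 72 alternative values, 17 were fixed by construction, such as the number of genes with 1 event per gene. Of the other 55, for 18 results, 45 stayed within the 95% interval of the reported share or median, or within 1.5 times the reported count. At an FDR under 0.001, 790 events in 680 genes were left, cassette exons made up 31.4% of events, retained introns 26.8%, and constitutive exons 32.3% of cassette exons. With only annotated exons as the denominator, constitutive exons made up 55.5%. The share of events also in the Col-0 table was 65.6% at an FDR under 0.01 and 70.3% under 0.001, and that of genes 73.4% and 77.4%. The cause was not tested, beyond the smaller number of events. Leaving out the 38 events outside their listed gene, an alternative chosen after seeing the data, moved none of the 12 results that could change beyond these limits. Taking all members of the gene lists in place of those with an intron changed the members of 6 lists and moved none of their shares beyond its interval, and neither did leaving AGO1 out of its list, also chosen after seeing the data. Leaving out a replicate could not be run, and the tables give no depth. No paired analysis was possible because the tables hold no values per sample.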

Other observations

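A listed length of 81 nt recurs among alternative starts (24 of 59) and alternative ends (8 of 15), against 8 of 387 cassette exons and 7 of 327 retained introns. GRP7, its paralog GRP8 (AT4G39260) and PHYA are among the alternative starts of that length. GRP8 and PHYA have no other listed event, so their place in the group counts rests on it. What sets the recurring length was not tested. By chromosome, the share of intron-containing genes that were listed ran from 4.47% on chromosome 1 to 4.61% on chromosome 5.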
